A study of Homo sapiens and Mus musculus with 28 samples.

Results

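In DLD-1, a human colorectal cancer line, the transcription factor GATA6 was removed by an auxin-inducible degron or by CRISPR knockout. The knockout was studied both in culture and in xenografts. A set of 10 genes was followed because their changes differed between these 3 systems. They are CFTR, SLC30A10, CADPS, PRSS2, CADM1, IQGAP2, DPYSL3, KLHL4, CELF2 and BAHCC1, 10 of 60357 genes measured in every library and 10 of 12764 that passed the filter on low counts in all 3 systems. The effects that chose them were 72 h of auxin against control cells, knockout against wild type in culture, and knockout against control in xenografts, and the differences between those effects. Values of the 10 genes in these 3 contrasts are therefore given as a description, with no test. Tests are given for 12 h of auxin and for its washout. Of these, washout against 12 h compares only libraries that the choice did not use. Its spread and its filter on low counts came from the fit of all degron libraries, control and 72 h included. The contrasts of 12 h and of washout with control also share the 3 control libraries of the 72 h effect. No adjusted p-value of the 10 genes is therefore fully free of the choice.

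DLD-1 is an established line from a colorectal adenocarcinoma, and GATA6, a transcription factor with zinc fingers, belongs to the regulators of endoderm. All 12 degron libraries carried the genotype GATA6-AID-IAA7, in which an auxin-inducible degron on GATA6 lets the plant hormone auxin (indole-3-acetic acid, 500 µM) trigger breakdown of the protein. They formed 4 groups of 3: control cells at 0 h, a 12 h exposure to auxin, a 12 h exposure followed by washing and 24 h of auxin-free medium, and a 72 h exposure. The control cells are titled as controls, but their treatment field reads +Auxin at a time of 0 h, and they were taken here as cells without exposure, on which every contrast with them rests. DLD-1 cultures without the tag gave 3 wild-type (WT) libraries and 3 libraries with CRISPR knockout of GATA6 (KO). No library is labelled as untagged cells given auxin, or as unexposed degron cells grown for as long as the treated ones. The degron contrasts thus do not separate loss of GATA6 from exposure to auxin or from hours of growth. The part of each in the degron values below was not tested. Xenografts of control or KO cells, injected into the flank of athymic nude mice 5 to 6 weeks old, gave 5 libraries each, from conditions of 10 mice. The labels do not say whether the KO cells were 1 clone or a pool, how many degron clones were used, or whether each replicate was its own culture or animal, so p-values measure only the spread between these libraries.

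Library totals ran from 14569850 to 36500654 counts. The GATA6 transcript stood at 43.2 to 49.8 CPM (counts relative to library size after TMM scaling) in degron control cells and 31.4 to 36.0 CPM at 72 h, at 57.3 to 91.7 CPM in WT and 18.4 to 25.2 CPM in KO cultures, and at 66.5 to 80.2 CPM in control and 28.98 to 42.9 CPM in KO xenografts, so the groups did not overlap in any of the 3 contrasts. Epithelial markers were present in every group, with 8 or 9 of the 9 listed genes detected, and their sum was higher without overlap in all 3 contrasts: 13921 to 15089 CPM in degron control cells and 15329 to 16319 CPM at 72 h, 19166 to 19473 CPM in WT and 22478 to 23401 CPM in KO cultures, and 8669 to 10301 CPM in control and 12852 to 18018 CPM in KO xenografts. The sum of 8 endothelial markers was also higher without overlap, with 10.98 to 12.7 CPM in degron control cells and 19.1 to 19.7 CPM at 72 h, 10.97 to 12.8 CPM in WT and 20.8 to 22.3 CPM in KO cultures, and 5.88 to 6.76 CPM in control and 12.1 to 16.4 CPM in KO xenografts. Most of it was EGFL7 and VWF; of the defining markers, PECAM1 and KDR were at 0 in degron control cells and at 72 h, KDR in both cultures, PECAM1 and CDH5 in control xenografts and KDR in KO xenografts. Of 10 human fibroblast markers, 8 had a count in control xenografts and 7 in KO xenografts, with a summed level of 6.48 to 13.5 and 7.98 to 21.4 CPM; in cells the sum was at most 1.25 CPM. DCN and PDGFRA were at 0 in control xenografts, and PDGFRA, THY1 and POSTN in KO xenografts. Of 10 leukocyte markers, 4 had a count in WT cultures and 6 in KO cultures, with a sum of 5.62 to 6.74 and 25.2 to 27.0 CPM, nearly all of it CD68 in the KO cultures (22.8 to 24.1 CPM), with CD3E, FCGR3A and TYROBP among those at 0. The leukocyte sum was 1.74 to 2.25 CPM in degron control cells and 2.49 to 2.76 CPM at 72 h, and it overlapped in xenografts, at 5.44 to 10.5 and 2.60 to 9.97 CPM. Haemoglobin transcripts reached 4897 and 1027 counts in 12 h replicates 2 and 3 and 227 and 2739 counts in washout replicates 1 and 3. The part of these markers in the results below was not tested, except where values without the haemoglobin-rich libraries are given.

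The 10 genes encode proteins of several kinds. CFTR is the apical chloride channel of intestinal crypts, opened by cyclic AMP, SLC30A10 exports manganese from the cell, CADPS primes dense-core vesicles for release, and PRSS2 is anionic trypsinogen, a digestive protease precursor of pancreatic acinar cells. CADM1 is an immunoglobulin-type adhesion molecule of lateral membranes, IQGAP2 a scaffold that binds CDC42, RAC1 and calmodulin, and DPYSL3 a collapsin response mediator that acts on the cytoskeleton. KLHL4 is a kelch-repeat protein of the family that brings substrates to cullin ubiquitin ligases, CELF2 an RNA-binding regulator of splicing, and BAHCC1 a chromatin protein with a BAH domain. GATA factors bind DNA at a short motif, WGATAR, with W for A or T and R for A or G.

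Forms of that motif ending in A, AGATAA and TGATAA, were looked for on both strands, and those ending in G were not. The search covered RefSeq promoter windows (GRCh38.p14) of 250 bases before to 50 after each annotated start. Of 35116 windows of all genes, 5727 held AGATAA or TGATAA, or 16.3%. Windows were given for 9 of the 10 genes, with CADM1 the exception, and 5 of their 22 windows held either form. These lay in 4 of the 9 genes, PRSS2, KLHL4, IQGAP2 and CELF2. CELF2 had 10 windows and IQGAP2 had 3. The share of all genes with a match was not computed, so nothing is read from the number of genes. A match describes these letters and is not evidence of a bound site, and a window without one says nothing about the factor elsewhere. The bases before the starts of PRSS2 and of its paralog PRSS1 are shown because both genes were far lower in KO cultures and KO xenografts than in their WT and control libraries, and 30 bases after the start of KLHL4 because its transcript had 0 counts in every knockout library. These genes were picked for display by those falls, so a fall beside a match is no result. CFTR, SLC30A10, CADPS, DPYSL3 and BAHCC1 were also lower in KO cultures and had no match. CELF2, higher in both knockouts, had a match in 2 of its 10 windows, and IQGAP2, lower in both, in 1 of its 3. Capitals mark AGATAA, or TTATCA, which is TGATAA read on the other strand.
PRSS2, chr7:142770720-142770969, plus strand: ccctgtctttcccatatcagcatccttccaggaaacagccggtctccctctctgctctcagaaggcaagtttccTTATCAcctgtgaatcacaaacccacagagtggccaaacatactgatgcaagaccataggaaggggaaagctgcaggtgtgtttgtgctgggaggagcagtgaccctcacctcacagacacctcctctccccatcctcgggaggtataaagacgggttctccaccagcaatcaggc
PRSS1, chr7:142749222-142749471, plus strand: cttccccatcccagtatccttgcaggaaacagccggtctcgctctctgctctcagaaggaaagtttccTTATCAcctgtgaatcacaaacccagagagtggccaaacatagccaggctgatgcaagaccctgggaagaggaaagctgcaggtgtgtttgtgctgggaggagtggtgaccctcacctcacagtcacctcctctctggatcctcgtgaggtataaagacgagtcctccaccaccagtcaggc
KLHL4, chrX:87517821-87517850, plus strand: cagaaaaacaagAGATAAcaaaggctccgt
The PRSS2 motif began 176 bases before the start and that of PRSS1 182 bases before it, and the pair of 250-base stretches was identical at 222 of 256 aligned positions (86.7%). In KLHL4 the motif lay after the start, from base 31 past it.

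**Figure D1:**
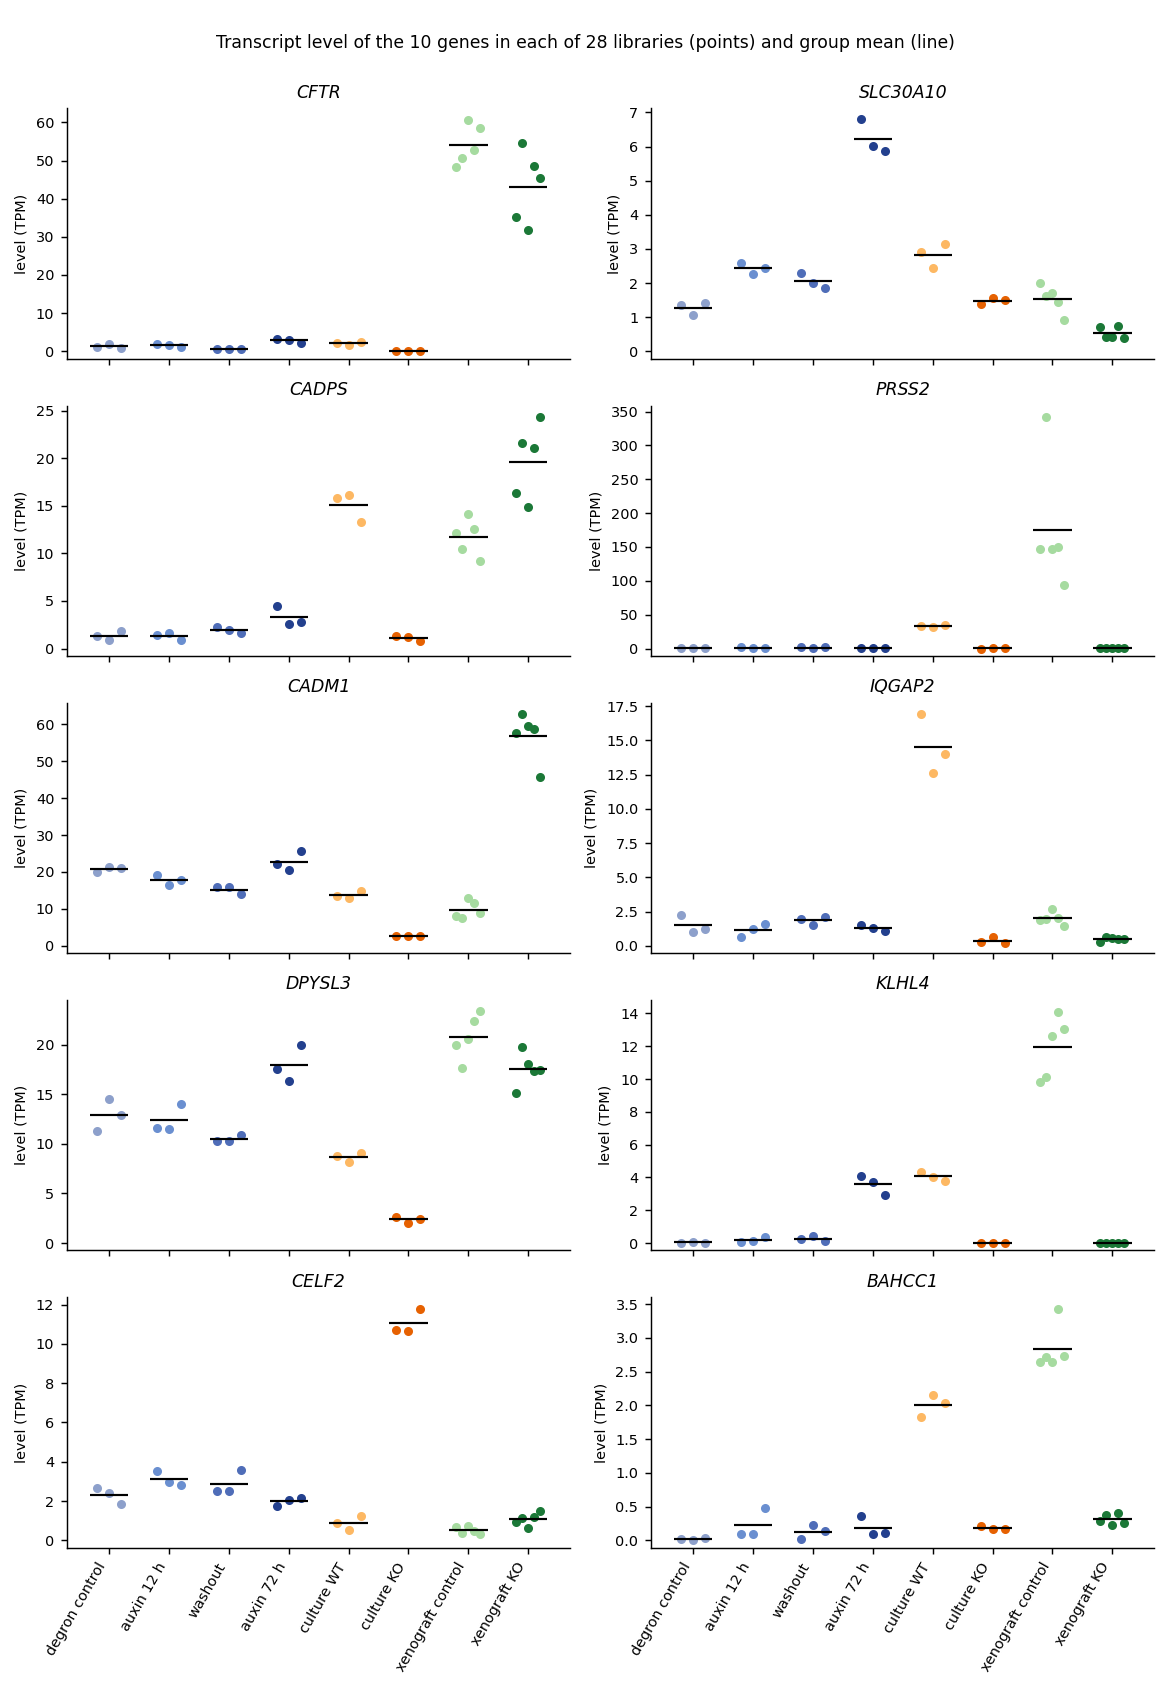
Transcript level in TPM (abundance per length and library size, linear axes that differ between panels) of each of the 10 genes in 28 libraries; points are libraries and lines are group means. CADM1 stood at 45.8 to 62.8 TPM in KO xenografts and at 2.53 to 2.66 TPM in KO cultures, while KLHL4 was at 0 in all 8 KO libraries and at 2.91 to 4.11 TPM in cells given auxin for 72 h.

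Across the 3 contrasts used to choose them, the log2 fold changes of 9 of the 10 genes did not share 1 sign, and those of IQGAP2 did. PRSS2 is among the 9 only through its 72 h value of 0.02 (SE 0.65), which has no clear direction. The share of all genes whose signs differ was not computed. At 72 h of auxin 7 genes had a positive and 3 a negative log2 fold change, with a median of 0.50 against 0.00 over all genes tested. In KO cultures 1 was positive and 9 negative (median -3.82, all genes 0.02), and in KO xenografts 3 were positive and 7 negative (median -0.85, all genes -0.01). Groups were apart, with no overlap of libraries, for 8 of the 10 genes at 72 h, for all 10 in culture and for 7 in xenografts. Beside those counts, 57.8% of all genes tested were called at 72 h, 59.1% in culture and 56.1% in xenografts at an adjusted p under 0.05. By direction, 28.3% of all 14029 genes tested were called higher and 29.5% lower at 72 h, 30.4% and 28.7% of 13740 in culture, and 28% and 28.1% of 14996 in xenografts. Apart in the higher and the lower direction were 31.7% and 32.1% of all genes at 72 h, 33.2% and 31.1% in culture, and 20.5% and 20.4% in xenografts. Scaling on total counts moved the median of all genes to 0.12 at 72 h and to 0.11 in culture on the log2 scale, and the share of calls that were higher from 48.9% to 65.0% and from 51.4% to 62.2%. Nothing is read from these counts, since the genes were chosen on them. In bulk libraries, fewer cells of a type and less RNA per cell cannot be told apart.

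**Figure D2:**
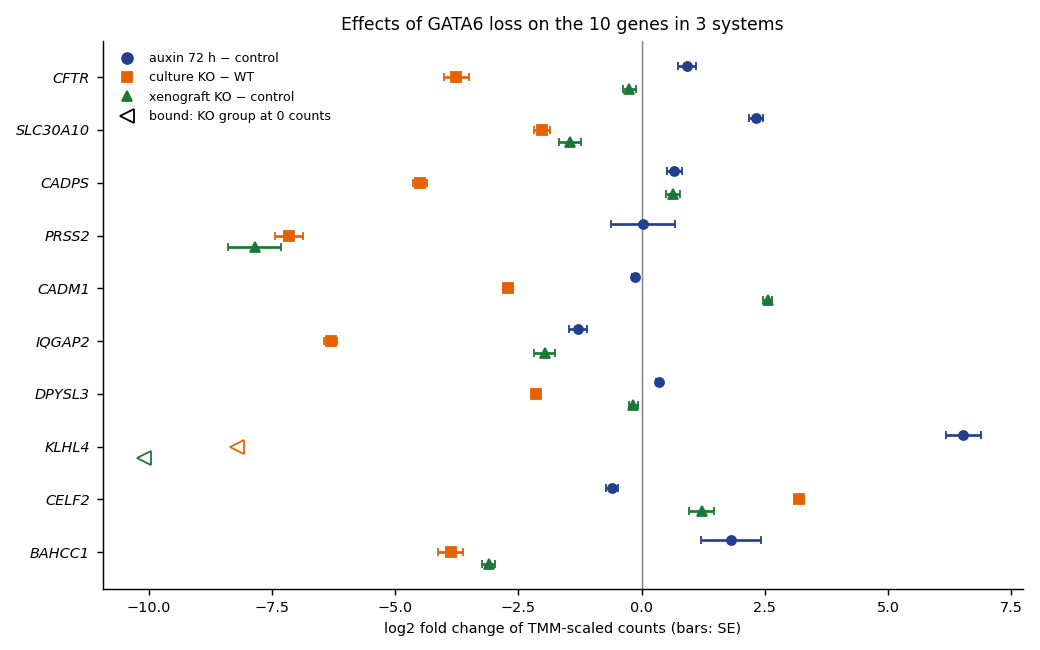
Log2 fold change (TMM-scaled counts; bars are SE) of each gene at 72 h of auxin (circles), in KO cultures (squares) and in KO xenografts (triangles); open arrowheads are bounds for KLHL4, whose KO libraries held 0 counts. The 3 symbols lie on both sides of 0 for every gene except IQGAP2, though the PRSS2 circle, at 0.02 (SE 0.65), has no clear direction.

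Among the transport and secretion genes, CFTR (ENSG00000001626; hg38 chr7:117465784-117715971, plus strand) had 3.59, 3.6 and 3.85 CPM in degron control cells and 7.65, 5.98 and 7.23 CPM at 72 h. In culture it had 6.81, 6.53 and 7.29 CPM in WT and 0.629, 0.610 and 0.249 CPM in KO. The channel was thus higher in all 3 libraries at 72 h and lower in all 3 KO cultures, by log2 fold changes of 0.92 (SE 0.18) and -3.76 (SE 0.25). Control xenografts held far more of it, 224, 218, 272, 227 and 268 CPM, and KO xenografts 165, 252, 154, 213 and 230 CPM. The xenograft ranges overlapped (log2 fold change -0.25, SE 0.13). Per length, the mean level in control xenografts was 54.1 ± 5.27 TPM (SD, n = 5) against 2.08 ± 0.359 TPM in WT cultures and 1.29 ± 0.537 TPM in degron control cells (SD, n = 3 each). In order of mean TPM, control and KO xenografts overlapped and stood apart from all cells, 72 h, WT, 12 h and degron control cells each overlapped the next, and washout and KO cultures came last, each apart from the group above it. CTTNBP2, a cortactin-binding protein whose exons overlap those of CFTR on the opposite strand, was at 21.6 ± 2.3 CPM in control and 33.0 ± 4.27 CPM in KO xenografts and at most 0.839 CPM on average in any group of cells. The libraries were directional, but the strand setting of the counting is not given in the sources used here, so its reads and those of CFTR may not be fully separated.

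Among 21 other genes of intestinal chloride and fluid secretion, 4 rose and 4 fell of 11 tested at 72 h, 5 rose and 6 fell of 14 in KO cultures, and 7 rose and 5 fell of 16 in KO xenografts. SLC12A2, the basolateral cotransporter that loads chloride into the cell, fell in all 3 contrasts, by 0.53, 1.45 and 0.88 on the log2 scale. KCNQ1, a basolateral potassium channel, rose at 72 h (log2 fold change 1.07, adjusted p = 0.000164) and fell by 1.73 in KO xenografts (adjusted p = 0.000100). GUCY2C, the guanylin receptor of enterocytes, fell from 7.88 to 0.219 CPM in KO xenografts. AQP3, a water and glycerol channel, fell by 2.91 in KO cultures and rose by 0.52 in KO xenografts. These genes were not members of the set. Their list was drawn up with earlier results of these data known, and KCNQ1 was named after its values were seen. They therefore give no independent support.

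SLC30A10 (ENSG00000196660; chr1:219685427-219958647, minus strand) had 2.26, 2.09 and 2.62 CPM in degron control cells and 12.5, 11.4 and 10.9 CPM at 72 h. WT cultures gave 7.58, 7.44 and 8.52 CPM and KO cultures 1.80, 1.97 and 1.99 CPM. In xenografts the levels were 9.68, 7.37, 8.10, 6.52 and 4.46 CPM in controls and 3.57, 1.99, 2.13, 3.50 and 2.11 CPM in KO. No groups overlapped: the transporter was 4.99-fold higher at 72 h (log2 fold change 2.32, SE 0.14), 4.07-fold lower in KO cultures (-2.02, SE 0.16) and 2.74-fold lower in KO xenografts (-1.46, SE 0.23). The difference between the 72 h and culture effects was 4.35 on the log2 scale (SE 0.21). Per length, cells at 72 h had the highest mean level (6.23 ± 0.498 TPM) and KO xenografts the lowest (0.540 ± 0.178 TPM), each apart from its neighbour in the order, and the 6 groups between overlapped from one to the next.

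Of 17 other zinc and manganese transport genes tested at 72 h, 2 rose and 12 fell, and scaling on total counts gave 3 and 7. In KO cultures 7 rose and 5 fell of 18, and in KO xenografts 6 rose and 4 fell of 18. ATP2C1, the Golgi pump for calcium and manganese, fell in all 3 contrasts, from 470 to 258 CPM at 72 h, from 517 to 233 CPM in KO cultures and by 0.54 on the log2 scale in xenografts. SLC39A14, which brings zinc and manganese into the cell, fell by 0.46, 0.21 and 1.03. SLC30A10 differed in sign between the same contrasts.

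CADPS (ENSG00000163618; chr3:62398346-62875389, minus strand) had 3.84, 3.21 and 4.74 CPM in degron control cells and 7.15, 5.28 and 6.19 CPM at 72 h. Its level was 45.1, 44.6 and 43.4 CPM in WT and 2.26, 2.34 and 1.2 CPM in KO cultures. Xenografts had 43.2, 35.4, 47.0, 41.6 and 33.4 CPM in controls and 46.5, 67.9, 52.3, 62.1 and 82.5 CPM with KO. KO cultures were thus 22.6-fold lower than WT (log2 fold change -4.50, SE 0.14), whereas 4 of the 5 KO xenografts lay above every control and the fifth lay just under the highest control (0.64, SE 0.15). The fold at 72 h was 1.59 (0.67, SE 0.15), with no overlap. In mean TPM the 2 xenograft groups and WT cultures, from 11.7 to 19.6, stood apart from the other 5 groups, from 1.09 to 3.27.

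Of the other genes of dense-core vesicle release, 6 rose and 1 fell of 13 tested at 72 h, 10 rose and 3 fell of 15 in KO cultures, and 8 rose and 3 fell of 14 in KO xenografts, with median log2 fold changes of 0.28, 0.59 and 0.40. CADPS2, the paralog of CADPS, rose from 2.42 ± 0.425 to 8.27 ± 1.51 CPM in KO cultures (log2 fold change 1.76, adjusted p = 8.65e-07) and from 1.19 ± 0.52 to 8.91 ± 0.813 CPM in KO xenografts (2.88, adjusted p = 7.65e-08). It was too low in degron cells to be tested, with 0 to 4 counts per library. SYT7, a calcium sensor of vesicle fusion, rose in all 3 contrasts (1.23, 0.75 and 1.44). In KO cultures, therefore, CADPS and CADPS2 stood on opposite sides of their WT levels, and in KO xenografts both means lay above the controls.

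PRSS2 (ENSG00000275896; chr7:142760398-142774564, plus strand) was near the limit of detection in degron cells, with 5 counts in each control library and 6, 3 and 11 counts at 72 h (log2 fold change 0.02, SE 0.65). WT cultures held 345, 331 and 276 counts, or 15.6, 15.1 and 15.5 CPM, and KO cultures 0, 5 and 3 counts. Xenograft levels were 67.8, 148, 65.6, 62.8 and 42.5 CPM in controls against 0.331, 0.413, 0.436, 0.257 and 0.176 CPM in KO. All WT and control xenograft libraries lay far above all KO libraries, by 142-fold in culture (log2 fold change -7.15, SE 0.28) and 231-fold in xenografts (-7.85, SE 0.53). Without each library in turn, the xenograft log2 fold change ran from -8.01 to -7.47, the upper end without the control library at 148 CPM. The degron control cells thus lay near the knockout level: mean TPM was 0.580 ± 0.0361 in degron control cells, 0.333 ± 0.290 in KO cultures, 0.702 ± 0.243 in KO xenografts, 33.3 ± 1.21 in WT cultures and 176 ± 95.7 in control xenografts.

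The paralogs PRSS1 and PRSS3 share 91.8% and 90.9% of aligned transcript positions with PRSS2, and how the reads of the 3 genes were divided is not known. PRSS1, cationic trypsinogen, fell from 1.75 ± 0.347 to 0.159 ± 0.0535 CPM in KO cultures (log2 fold change -3.45, adjusted p = 4.18e-06) and from 6.40 ± 3.63 to 0.111 ± 0.0704 CPM in KO xenografts (-5.88, adjusted p = 4.35e-07), and held 0 to 6 counts in degron libraries. PRSS3, mesotrypsinogen, had a level in the control or WT libraries of all 3 systems: 32.7 ± 2.53 CPM in degron control cells, 38.8 ± 1.86 CPM in WT cultures and 35.5 ± 3.44 CPM in control xenografts. It fell in each, to 9.24 ± 0.274 CPM at 72 h (adjusted p = 3.97e-15), 2.02 ± 0.593 CPM in KO cultures (adjusted p = 1.86e-11) and 1.01 ± 0.477 CPM in KO xenografts (adjusted p = 1.16e-10). Of the other genes listed with the trypsinogens, SPINK1, the secreted trypsin inhibitor, fell from 4.72 to 0.109 CPM in KO xenografts and was too low to test in cells, and F2RL1, the receptor that trypsin cleaves, fell in all 3 contrasts by 0.44, 0.71 and 0.93 on the log2 scale. SPINT1, a membrane inhibitor of trypsin-like proteases, rose by 0.30, 0.42 and 1.04.

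**Figure D3:**
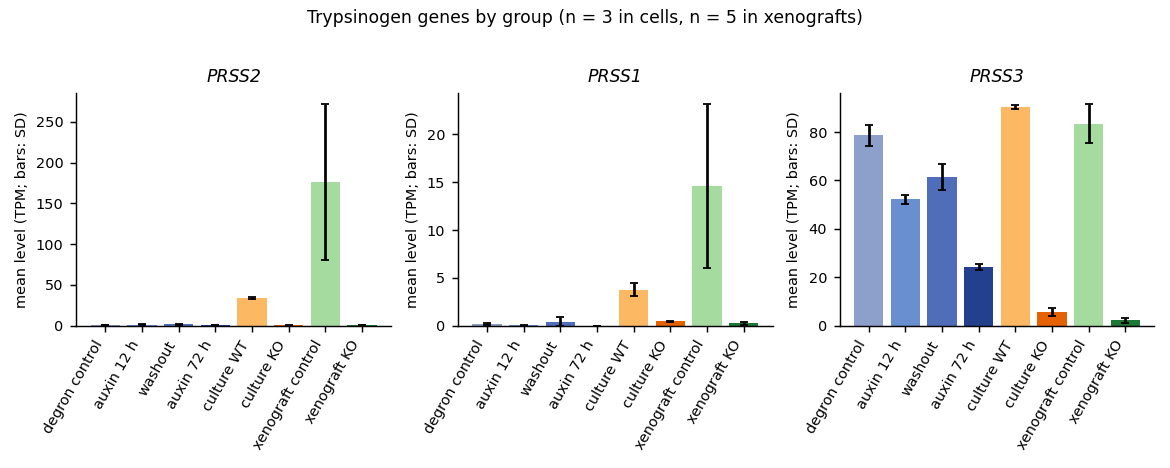
Mean level in TPM (linear axes from 0; bars are SD, cut at 0 below) of PRSS2, PRSS1 and PRSS3 in the 8 groups, with n = 3 in cells and n = 5 in xenografts. PRSS2 was at 0.580 TPM in degron control cells and 176 TPM in control xenografts, while PRSS3 was at 78.8 TPM and 83.4 TPM in those groups.

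Among the adhesion and cytoskeleton genes, CADM1 (ENSG00000182985; chr11:115169218-115504957, minus strand) had 47.2, 45.0 and 50.9 CPM in degron control cells and 42.2, 41.8 and 45.8 CPM at 72 h. It had 27.2, 25.6 and 27.1 CPM in WT and 3.98, 3.86 and 4.36 CPM in KO cultures. Control tumours gave 21.6, 20.4, 25.6, 24.9 and 19.9 CPM and KO tumours 137, 139, 141, 129 and 114 CPM. The 2 knockout systems thus moved in opposite directions with no overlap in either, 6.55-fold lower in culture (log2 fold change -2.71, SE 0.10) and 5.88-fold higher in xenografts (2.56, SE 0.09), a difference of -5.27 on the log2 scale (SE 0.13). At 72 h the ranges overlapped (-0.14, SE 0.06), and the sign depended on scaling: -0.02 on total counts and 0.12 on log2(TPM + 1). KO xenografts were the highest of the 8 groups in TPM and KO cultures the lowest, each apart from its neighbour.

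Of the other CADM and nectin adhesion genes, 5 rose and 3 fell of 10 tested at 72 h, 6 rose and 3 fell of 10 in KO cultures, and 6 rose and 3 fell of 11 in KO xenografts. EPB41L3, the band 4.1 protein that binds the tail of CADM1, rose 21.0-fold in KO xenografts, from 3.64 ± 0.502 to 76.1 ± 4.7 CPM (log2 fold change 4.39, adjusted p = 2.71e-14), and from 0.205 ± 0.0524 to 1.36 ± 0.33 CPM at 72 h. In cultures it was too low to be tested, at 0.169 ± 0.118 CPM in WT and 0.433 ± 0.0845 CPM in KO. CADM4, a close paralog, rose in all 3 contrasts (1.25, 1.08 and 1.91), and NECTIN3, an adhesion partner of other nectins, rose in KO cultures (2.56) and KO xenografts (2.95). CRTAM, a receptor that binds CADM1 on other cells, fell from 18.3 to 2.98 CPM in KO cultures. The fibroblast markers did not move together in xenografts: COL1A1, the most abundant, was at 2.02 to 9.43 CPM in control and 7.10 to 20.8 CPM in KO, while PDGFRB was at 2.94 to 3.97 CPM in control and 0.198 to 0.526 CPM in KO, and LUM at 0.336 to 1.12 CPM in control and at most 0.164 CPM in KO. The sum of the list was at most 21.4 CPM in KO xenografts. Such a sum sets no bound on what a cell type adds to another gene, and the handling of mouse reads is not given. The part of these markers in the CADM1 difference was not tested.

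IQGAP2 (ENSG00000145703; chr5:76403249-76708132, plus strand) had 3.99, 3.95 and 3.79 CPM in degron control cells and 1.45, 1.81 and 1.52 CPM at 72 h. WT cultures stood far higher, at 46.0, 44.6 and 45.6 CPM, and KO cultures at 0.796, 0.509 and 0.415 CPM. Xenografts had 8.40, 8.33, 9.88, 8.16 and 5.93 CPM in controls and 1.19, 2.78, 1.58, 2.21 and 2.46 CPM with KO. The scaffold was lower in all 3, with no overlap, but by sizes that ran from 2.45-fold at 72 h (log2 fold change -1.29, SE 0.18) through 3.91-fold in xenografts (-1.97, SE 0.21) to 79.1-fold in culture (-6.31, SE 0.13). On log2(TPM + 1) the 72 h value was -0.10. In TPM only WT cultures stood apart, at 14.5 ± 2.18, and each of the other 7 groups, from 2.02 to 0.367, overlapped the next. Of 12 other IQGAP proteins and partners, all tested, 2 rose and 6 fell at 72 h, 4 rose and 4 fell in KO cultures, and 2 rose and 5 fell in KO xenografts. Scaling on total counts gave 4 and 4 at 72 h and 5 and 2 in culture. The paralog IQGAP3 rose by 0.38 in KO cultures and fell by 0.62 in KO xenografts, and IQGAP1 fell by 0.19 at 72 h on TMM scaling, a call lost on total counts (-0.06) and with the opposite sign on log2(TPM + 1) (0.09).

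DPYSL3 (ENSG00000113657; chr5:147390811-147510056, minus strand) had 46.4, 51.8 and 52.4 CPM in degron control cells and 64.3, 62.6 and 64.2 CPM at 72 h. It had 38.0, 37.5 and 39.2 CPM in WT and 9.81, 8.001 and 8.31 CPM in KO cultures. Xenograft levels were 81.7, 67.4, 81.8, 85.1 and 95.8 CPM in controls against 62.4, 80.6, 76.2, 67.7 and 77.9 CPM in KO. This gene was higher in every 72 h library (log2 fold change 0.34, SE 0.06), 4.40-fold lower in every KO culture (-2.14, SE 0.09) and overlapping in xenografts (-0.17, SE 0.09), the same order of effects as CFTR. Its relative DPYSL2 fell in KO cultures, from 222 to 119 CPM, and in KO xenografts, from 157 to 61.6 CPM, and did not pass the test at 72 h (0.01, adjusted p = 0.822). NRP1, a semaphorin receptor of the same pathway, fell in all 3 contrasts (-1.24, -0.70 and -1.21). In the whole list 3 rose and 2 fell of 7 tested at 72 h, and 4 rose and 2 fell of 7 in KO cultures and again in KO xenografts.

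Among the genes of protein turnover, RNA and chromatin, KLHL4 (ENSG00000102271; chrX:87517749-87670050, plus strand) had 2, 3 and 1 counts in degron control cells and 268, 261 and 237 counts at 72 h, or 10.3, 10.1 and 9.47 CPM. WT cultures had 245, 250 and 209 counts and control xenografts 776, 975, 878, 823 and 819 counts. All 3 KO cultures and all 5 KO xenografts had 0 counts. A count of 0 allows up to 3 counts over the group, which makes KO cultures at least 294-fold lower than WT and KO xenografts at least 1087-fold lower than control, counting error only. At 72 h the fold was 92.1 upward (log2 fold change 6.52, SE 0.36). The level reached at 72 h, 3.59 ± 0.615 TPM, overlapped that of WT cultures, 4.06 ± 0.266 TPM, while degron control cells, at 0.0433 ± 0.0321 TPM, lay near the knockouts. Of the other kelch-like adaptors and CUL3, 5 rose and 4 fell of 16 tested at 72 h, 4 rose and 5 fell of 16 in KO cultures, and 3 rose and 7 fell of 17 in KO xenografts. Scaling on total counts gave 9 and 2 at 72 h and 7 and 3 in culture. KLHL24 rose at 72 h (1.47) and in KO cultures (0.67), and KLHL22 in KO cultures (1.06) and KO xenografts (0.57).

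CELF2 (ENSG00000048740; chr10:10798397-11336675, plus strand) had 9.84, 9.30 and 7.86 CPM in degron control cells and 5.20, 6.94 and 5.71 CPM at 72 h. It had 3.93, 3.65 and 5.27 CPM in WT and 38.1, 37.7 and 40.5 CPM in KO cultures. Control tumours gave 2.28, 1.13, 2.07, 1.39 and 1.52 CPM and KO tumours 4.37, 3.68, 2.35, 3.29 and 5.80 CPM. CELF2 was the one gene of the 10 that was higher in KO cultures, 9.14-fold (log2 fold change 3.19, SE 0.11). It was 2.32-fold higher in KO xenografts (1.22, SE 0.26) and 1.52-fold lower at 72 h (-0.60, SE 0.13), with no overlap of CPM in any. In TPM CELF2 overlapped at 72 h (1.76 to 2.16 against 1.86 to 2.67 in control cells). It also overlapped in xenografts (0.64 to 1.48 TPM in KO against 0.33 to 0.73 TPM in control). Its mean level in KO cultures, 11.05 ± 0.644 TPM, was apart from and above all other groups, which ran from 3.12 TPM at 12 h down to 0.512 TPM in control xenografts. Of the other CELF, MBNL and splicing genes, 4 rose and 2 fell of 10 tested at 72 h, 2 rose and 6 fell of 10 in KO cultures, and 5 fell and 0 rose of 10 in KO xenografts. On total counts 3 rose and 5 fell in KO cultures. CELF1, a paralog, rose at 72 h (0.29) and fell in KO cultures (-0.59) and KO xenografts (-0.33), the reverse of CELF2 in each, and MBNL1, another splicing regulator, fell in both knockouts (-0.40 and -0.82).

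BAHCC1 (ENSG00000266074; chr17:81395475-81466332, plus strand) had 3, 1 and 4 counts in degron control cells and 13, 12 and 13 counts at 72 h. WT cultures had 8.03, 10.2 and 12.0 CPM and KO cultures 0.880, 0.780 and 0.374 CPM. Xenografts had 22.5, 21.5, 21.9, 27.2 and 23.2 CPM in controls and 2.51, 3.23, 1.91, 3.34 and 2.34 CPM with KO. Both knockouts were lower with no overlap, 14.6-fold in culture (log2 fold change -3.87, SE 0.25) and 8.59-fold in xenografts (-3.10, SE 0.14), and the few counts at 72 h all lay above those of the control cells (1.81, SE 0.61). Like PRSS2 and KLHL4, the gene was already low in degron control cells, at 0.0200 ± 0.0100 TPM against 2.01 ± 0.167 TPM in WT cultures. An unnamed gene, ENSG00000279692, overlaps its exons, at 0.425 to 3.91 CPM on average by group, which is above BAHCC1 itself in the degron groups and in KO xenografts (3.91 against 2.67 CPM), so the small BAHCC1 values and the size of the xenograft fold are uncertain. Of 19 other BAH-domain and Polycomb genes tested, 8 rose and 4 fell at 72 h, 3 rose and 6 fell in KO cultures, and 7 rose and 7 fell in KO xenografts. Scaling on total counts gave 12 and 2 at 72 h and 5 and 5 in culture. EZH2, the methyltransferase of Polycomb complex PRC2, fell by 0.86 in KO cultures and 0.93 in KO xenografts, and CBX2 fell by 1.06 in KO cultures and rose by 0.20 in KO xenografts. Over the 10 gene lists given beside these genes, median log2 fold changes ran from -0.24 to 0.28 at 72 h, from -0.27 to 0.59 in KO cultures and from -0.93 to 0.48 in KO xenografts, against 0.00, 0.02 and -0.01 over all genes tested.

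The 12 h and washout libraries were not used to choose the genes. After 12 h of auxin, 3 of the 10 genes passed the threshold, 1 higher and 2 lower, where 7.39% of all genes tested were called, 4.04% higher and 3.35% lower (edgeR quasi-likelihood test, adjusted p under 0.05). Of all calls at 12 h, 54.7% were higher on TMM scaling and 66.9% on total counts. The control libraries here are those of the 72 h contrast that chose the genes, so these p-values are not independent of the choice. SLC30A10 rose 1.81-fold, from 2.26, 2.09 and 2.62 to 4.59, 3.85 and 4.18 CPM (log2 fold change 0.85, SE 0.15, adjusted p = 0.000675), higher in 3 of 3 libraries. IQGAP2 fell by 0.77, to 1.78, 2.57 and 2.47 CPM (SE 0.18, adjusted p = 0.00679), and CADM1 by 0.32, to 37.1, 37.7 and 39.7 CPM (SE 0.06, adjusted p = 0.00222), each lower in 3 of 3 libraries. The IQGAP2 call was lost without 12 h replicate 1 (adjusted p = 0.0610), and both calls for lower genes on log2(TPM + 1), where adjusted p was 0.651 for IQGAP2 and 0.239 for CADM1. Without the haemoglobin-rich libraries the 12 h group is replicate 1 alone, the library that the IQGAP2 call rests on, so the 3 calls made there give no support. KLHL4 had 4, 9 and 11 counts, all above the 2, 3 and 1 of the controls, and did not pass (1.84, SE 0.64, adjusted p = 0.0848), nor did CELF2 (0.33, SE 0.12, adjusted p = 0.103), whose 3 libraries were also apart from the controls. Groups were apart for 3 genes in the higher and 2 in the lower direction, where 11.7% and 12.3% of all genes were. The other 5 genes overlapped and had adjusted p from 0.505 (DPYSL3) to 0.842 (PRSS2).

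Washout against 12 h compares no library of the contrasts that chose the genes. Its spread and filter, however, came from a fit that also holds the control and 72 h libraries. Of the 10, 1 was called higher and 2 lower, where 17.4% of all genes were called, 9.27% higher and 8.15% lower. IQGAP2 was 2.12-fold higher after washout, from 1.78, 2.57 and 2.47 to 5.21, 4.31 and 5.04 CPM (log2 fold change 1.08, SE 0.17, adjusted p = 0.000122), and every washout library also lay above every control library, though that difference did not pass the test (0.31, adjusted p = 0.318). The 12 h libraries enter this contrast and the one with control with opposite signs, so a low 12 h group alone would give a fall and then a rise. CFTR fell by 0.76, to 1.43, 1.82 and 2.39 CPM (SE 0.22, adjusted p = 0.0164), with 1 washout library above the lowest of the 12 h libraries. DPYSL3 fell by 0.20, to 40.3, 39.9 and 44.0 CPM (SE 0.06, adjusted p = 0.0380), lower in 3 of 3 libraries. SLC30A10 went to 3.45, 3.76 and 3.34 CPM, below all 12 h libraries and above all controls, but the change from 12 h did not pass (-0.25, SE 0.14, adjusted p = 0.242). KLHL4 had 16, 24 and 6 counts (1.12, SE 0.41, adjusted p = 0.0605). Groups were apart for 2 genes in each direction, with backgrounds of 17.5% higher and 15.9% lower.

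The calls changed when libraries were left out. Without the 4 haemoglobin-rich libraries, which leaves 1 library each at 12 h and after washout and assumes that it varies like the other groups, IQGAP2 had a log2 fold change of 1.26 (adjusted p = 0.0517) and DPYSL3 -0.18 (adjusted p = 0.451), so both calls were lost, and KLHL4 passed (2.66, adjusted p = 0.0147). Over leave-one-out fits adjusted p ran up to 0.127 for CFTR (without 12 h replicate 1) and 0.143 for DPYSL3 (without 12 h replicate 3), and KLHL4 ran from 0.00834 (without washout replicate 3) to 0.389. Without 12 h replicate 1, PRSS2 passed as higher (2.19, adjusted p = 0.0339). On log2(TPM + 1) all 3 calls were lost, with adjusted p of 0.190 for IQGAP2, 0.0548 for CFTR and 0.227 for DPYSL3.

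**Figure D4:**
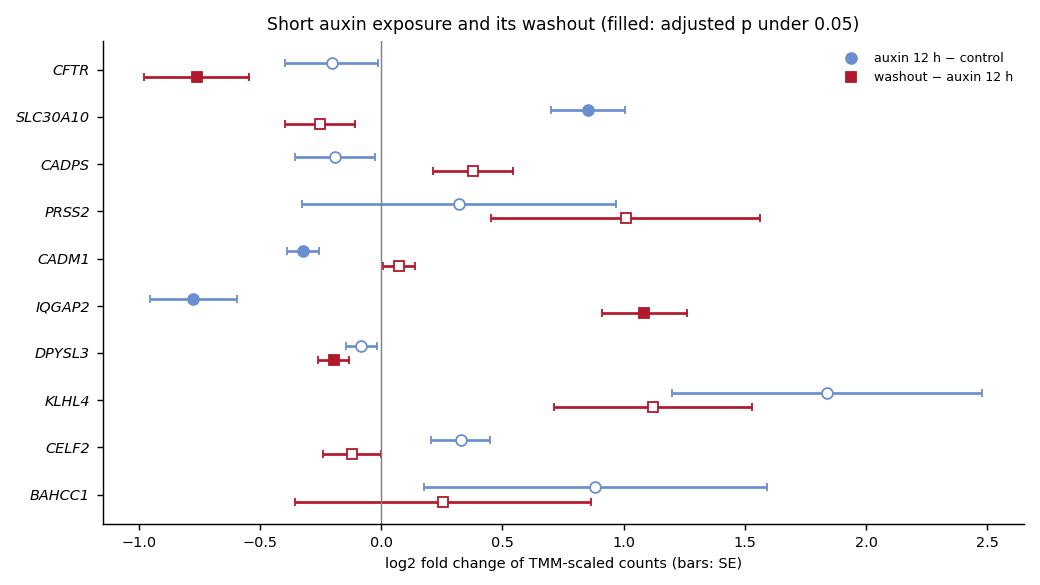
Log2 fold change (TMM-scaled counts; bars are SE) after 12 h of auxin against control (circles) and after washout against 12 h (squares), n = 3 per group; filled symbols have an adjusted p under 0.05. IQGAP2 lay at -0.77 and 1.08, the only gene of the 10 called in both, and the 12 h libraries are shared by both contrasts with opposite signs.

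Washed cells were also set against the control cells, whose libraries the 72 h contrast shares, so that these p-values are not independent of the choice. KLHL4, for which the same 1 to 3 control counts entered the choice, rose 7.79-fold (log2 fold change 2.96, SE 0.55, adjusted p = 0.00193) and SLC30A10 1.52-fold (0.60, SE 0.16, adjusted p = 0.0269), while CFTR fell by 0.96 (SE 0.21, adjusted p = 0.00772), DPYSL3 by 0.28 (SE 0.06, adjusted p = 0.0113) and CADM1 by 0.25 (SE 0.07, adjusted p = 0.0249). These were 2 higher and 3 lower of the 10, where 5% of all genes were called, 2.64% higher and 2.36% lower, and all 5 showed their direction in 3 of 3 libraries. Groups were apart for 4 and 3 of the 10, against 10.5% and 10.3% of all genes. Without the haemoglobin-rich libraries, which leaves 1 washout library, the calls of SLC30A10, CFTR, DPYSL3 and CADM1 were lost, at adjusted p of 0.189, 0.0766, 0.0754 and 0.332, and that of KLHL4 was kept. Without 1 library at a time, the highest adjusted p was 0.101 for SLC30A10 (without washout replicate 2), 0.0576 for CFTR (washout replicate 1), 0.0820 for DPYSL3 and 0.163 for CADM1 (both without control replicate 3), and 0.0190 for KLHL4. CFTR and DPYSL3 were thus lower after washout than in control cells, whereas at 72 h both lay above the same controls.

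The starting levels of the genes differed between systems, as set out in TPM. WT cultures and degron control cells differed 4-fold or more (mean TPM plus 0.1) for 5 of the 10 genes, where 1.48% of 12764 genes did: PRSS2, KLHL4, BAHCC1, CADPS and IQGAP2, all higher in WT by 49.1, 29.02, 17.6, 10.4 and 9.13 times. Control xenografts and WT cultures differed that much for 3 genes (background 4.61%), with CFTR 24.9 times and PRSS2 5.27 times higher and IQGAP2 6.90 times lower in xenografts. Control xenografts and degron control cells differed for 5 (background 4.86%), namely PRSS2, KLHL4, CFTR, BAHCC1 and CADPS. These WT and control libraries are the baselines of the effects that chose the genes, so their levels entered the choice. Nothing is therefore read from these counts beside their backgrounds. The 3 systems differed in their numbers of gene identifiers, and the annotation release is not given. A batch and a system cannot be told apart in these levels, and none was tested.

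Of the 10 genes, 8 spanned more than 100 kb, where 18.1% of tested genes with a length did, with a median of 30.7 kb over all tested genes. They ran from 119 kb for DPYSL3 to 538 kb for CELF2, and the exceptions were PRSS2 at 14.2 kb and BAHCC1 at 70.9 kb. Among the nearest tested genes, F2R, 7.91 kb from IQGAP2, rose in KO cultures (0.37, adjusted p = 0.000303) and KO xenografts (0.68, adjusted p = 1.72e-06), where IQGAP2 was lower, and fell by 0.29 at 72 h (adjusted p = 0.0135), where IQGAP2 was lower too. STK32A, 2.96 kb from DPYSL3, rose at 72 h (0.85) and in KO xenografts (0.51) and did not pass in KO cultures (0.16). EPHB6, an ephrin receptor gene 80.5 kb from PRSS2, fell in KO cultures (-2.35) and KO xenografts (-2.08) and at 72 h (-0.63). ZC3H11B, 73.4 kb from SLC30A10, had 1.72 at 72 h, -0.99 in KO cultures and 1.96 in KO xenografts. It is annotated as a processed pseudogene, and how its reads were divided from those of similar sequences is not known. PTPRG, a phosphatase gene 101 kb from CADPS, fell by 0.98 in KO cultures and 0.57 in KO xenografts and did not pass at 72 h (-0.11).

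The genes were compared over the 28 libraries after the mean of each system was taken from log2(CPM + 1). These correlations describe libraries that share groups, and the group differences dominate them. Pearson's r was 0.954 between PRSS2 and BAHCC1, 0.929 between CFTR and DPYSL3, 0.909 between CADPS and DPYSL3 and 0.907 between KLHL4 and BAHCC1, while CELF2 ran against DPYSL3 at -0.909. Among all 12764 genes, the pattern most like that of PRSS2 was ARMCX4 (0.981), like BAHCC1 RMND1 (0.972), like IQGAP2 TSPAN8 (0.973), like KLHL4 PDE4D (0.956) and like CADM1 MIPEP (0.946). For CADPS it was AQP3 (0.931), for CELF2 FBXO25 (0.943), for SLC30A10 YEATS2 (0.924), for DPYSL3 GAS7 (0.932) and for CFTR DPYSL3. The fall of AQP3 in KO cultures and its rise in KO xenografts are part of its correlation with CADPS and add nothing to it.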

How the data were processed

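RNA from the degron cells, cultures and xenografts was sequenced from directional, poly-A selected libraries, per the labels' protocols. For each library the authors deposited expected counts per gene and TPM per gene. Trim Galore 0.6.10, STAR, RSEM and build hg38 appear, without roles, in the submitters' processing notes. The annotation release, the strand setting and the handling of mouse reads are not given in the sources used here. The labels give mouse as the organism of the xenograft libraries, but their files hold human gene identifiers. Identifiers numbered 60662, 60649 and 62700 in the 3 systems and were joined without version; coordinates came from GENCODE for the same build.

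After rounding, the deposited expected counts of each system were fitted on their own with edgeR 4.0.16 in R 4.3.3, using filterByExpr, TMM scaling and robust quasi-likelihood F tests. P-values were adjusted by Benjamini-Hochberg across the genes of a fit, and 0.05 was the threshold. SE was derived from the log2 fold change and the root of its F statistic. For a group at 0 the floor was 3 counts over the group, which covers counting error only. The steps were tested on simulated data. Alternatives were DESeq2 1.42.0, limma 3.58.1 on log2(TPM + 1), other scaling, no filter, a replicate block and leaving out libraries. Replicate numbers were not used to pair samples in the main fits. Leaving out the haemoglobin-rich libraries was chosen after seeing the data. The 10 genes and all gene lists were chosen with earlier results of these data known. Genes named besides the 10 were GATA6, up to 4 of each list with the smallest p in a comparison, flanking and overlapping genes, PRSS2 paralogs and the genes of most similar pattern; KCNQ1, IQGAP1, COL1A1, PDGFRB, LUM, EGFL7, VWF and CD68 were named after their values were seen. Some items are not reported here.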

Additional observations from a re-analysis of the deposited data

Results flagged for a closer look

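PRSS2 in control xenografts had 1 library far from the other 4: replicate 2 stood at 148 CPM, the others between 42.5 and 67.8 CPM. Of 19 groups of xenograft libraries examined in this way it was the only one, and chance alone gives about 1 in 20. The same library also held the most PRSS1, 459 counts before scaling, where the lowest of the 5 held 77. It was the deepest library of all, at 36500654 counts in total. How reads were divided between PRSS1 and PRSS2 is not known, so PRSS1 gives no separate support.

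CADM1 moved one way in every KO culture and the opposite way in every KO xenograft, with log2 fold changes of -2.71 and 2.56. The difference was not tested, because the gene was chosen for it.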

How the results depend on the processing

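No called log2 fold change of the 10 genes changed sign under the alternatives run; those that changed sign were not called. Of the other genes, IQGAP1 at 72 h went from -0.19 to 0.09 on log2(TPM + 1). The number of genes called at 12 h was 1037, against 357 on log2(TPM + 1) and 333 without the haemoglobin-rich libraries, and ran from 606 to 1170 when 1 library was left out. For washout against 12 h it was 2444, against 1123, 334 and 1414 to 2266, and for washout against control 701, against 281, 179 and 321 to 896, with 458 when only these 2 groups were fitted. At 12 h the low counts were without 12 h replicate 1 (606) and control replicate 2 (623), for washout against 12 h without washout replicate 3 (1414) and 12 h replicate 1 (1566), and for washout against control without control replicate 3 (321) and washout replicate 3 (353). The cause was not tested. With 1 library left out, 72 h calls ran from 7257 to 7685, culture from 7373 to 8041 and xenograft from 7579 to 8496.

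Same-number correlations ran from -0.068 to 0.132 in degron cells, -0.211 to -0.034 in culture and -0.140 to 0.045 in xenografts. Such low values cannot exclude pairing, and the main fits used none. With a replicate block the counts were 1202 at 12 h, 2642 for washout against 12 h, 816 for washout against control, 8185 at 72 h, 7723 in culture and 8045 in xenografts. On log2(TPM + 1) the share of calls that were higher was 70.9% at 12 h, 65.2% at 72 h and 74.4% in culture.

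For the 10 genes, 38 results lost a call, 7 gained one and 48 described values moved by more than the replicate spread. The other 739 either were described values that moved by less, or kept their call or lack of one. For the 12 h and washout contrasts only the call was compared, not the shift in size. KLHL4 at 12 h gained a call with no filter (adjusted p = 0.0314), and for washout against 12 h with DESeq2 (0.0391) and with no filter (0.0231). SLC30A10 for washout against control lost its call with DESeq2 (0.0541). PRSS2 at 72 h, never called, had a log2 fold change of -0.55 without 72 h replicate 3. Depth limits PRSS2, KLHL4 and BAHCC1 in degron cells, where controls held 1 to 5 counts.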
